A study of Mus musculus with 9 samples.

Results

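The mitochondrially encoded genes were the 37 genes of the mouse mitochondrial chromosome, taken as every row whose gene symbol began with mt-, out of 21883 genes in the expression table. They comprised 13 mRNA genes, 2 rRNA genes and 22 tRNA genes. RNA had been sequenced from invariant natural killer T (iNKT) cells sorted from the thymus of C57BL/6 mice, in 9 libraries, 3 for each of 3 groups. WT stage 2 cells and WT stage 3 cells came from 6-week-old wild type mice, and *Med23*-deficient stage 2 cells came from mice in which a floxed *Med23* gene had been deleted by a Cre driven by the *Cd4* promoter, which acts from the double-positive thymocyte onwards. The sorted cells were low in CD24 and bound the CD1d tetramer, and stage 2 cells carried CD44 without NK1.1 while stage 3 cells carried both. The age of the *Med23*-deficient mice was not given in the labels. *Med23* encodes a subunit of the Mediator complex, which links transcription factors to RNA polymerase II. The WT comparison asked what changes as iNKT cells pass from stage 2 to stage 3, and the other comparisons asked how stage 2 cells without Med23 differ from either WT stage. The study's methods speak of independent experiments, but the sources used here do not say whether the 3 libraries of a group are those experiments or came from separate mice, so p-values measure only the spread between these libraries, which may be technical.

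The mitochondrial genome is a small circle present in many copies per cell. Both strands are copied as long precursors by the polymerase POLRMT with the factor TFAM, and the tRNAs that lie between the other genes are cut out, which releases the rRNAs and mRNAs. All of the mRNAs encode subunits of the respiratory chain or of the ATP synthase, and are translated on mitochondrial ribosomes that contain the 2 mitochondrial rRNAs and nuclear-encoded proteins. In these coordinates 28 of the members were transcribed from one strand (written +) and 9 from the other (written -), namely *mt-Nd6* and 8 tRNAs. Since most members are cut from shared precursors, they are not independent of each other. In thymic T cells, respiration is known to vary with maturation and activation.

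The values were FPKM, fragments scaled by the length of the gene and by the total of mapped fragments. No counts were given from which sequencing depth could be read, and 15584 to 17333 genes per library were above 0. *Med23* itself was at 5.51, 5.15 and 6.74 FPKM in WT stage 2, 7.14, 4.44 and 6.12 in WT stage 3, and 4.80, 3.60 and 3.92 in *Med23*-deficient stage 2 cells. The *Med23*-deficient libraries lay below both WT stage 2 and, apart from 1 library of 4.44 FPKM, WT stage 3, but the difference from WT stage 2 did not pass the test (log2 fold change -0.41, SE 0.139, adjusted p = 0.373 by limma). A value over the whole gene does not separate the floxed part from the rest. The 10 iNKT cell markers summed to between 1210 and 1580 FPKM in every library. The 7 markers of double-positive thymocytes reported here summed to 3.49 to 4.10 FPKM in WT stage 2, 2.89 to 4.99 in WT stage 3 and 1.67 to 3.70 in *Med23*-deficient stage 2 cells. In their highest library *Cd8b1* reached 3.05 FPKM, *Dntt* 1.83, *Cd8a* 1.64, *Rag1* 1.58, *Cd24a* 0.72 and *Rag2* 0.26. *Ptcra*, the lowest of the 7, was at or below 0.08 FPKM in every library. The matched B cell and erythroid markers summed to at most 0.75 FPKM, and the myeloid markers to at most 4.73, which was reached in WT stage 3 through *Fcgr3*, an Fc receptor that NK cells also express. The part of other cells in the results below was not tested.

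The mitochondrial genes are packed with almost no spacer, and several of them overlap, which bears on how fragments can be assigned. The sequences below are from the GENCODE transcripts for GRCm38 (mm10), read 5′ to 3′ on the strand named, and show 3 overlaps of coding genes, with the shared bases in capitals. The overlap of *mt-Atp6* and *mt-Co3*, 1 base at chrM:8607, is not shown. *mt-Atp8* and *mt-Atp6*, subunits of the ATP synthase, shared 43 bases (chrM:7927-7969, + strand). *mt-Nd4l* and *mt-Nd4*, subunits of complex I, shared 7 bases (chrM:10167-10173, + strand). *mt-Nd5* on the + strand and *mt-Nd6* on the - strand, also subunits of complex I, shared 14 bases (chrM:13552-13565).
mt-Atp8 and mt-Atp6, chrM:7897-7999: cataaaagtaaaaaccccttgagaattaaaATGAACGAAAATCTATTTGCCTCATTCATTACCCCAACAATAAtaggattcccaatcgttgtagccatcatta
mt-Nd4l and mt-Nd4, chrM:10137-10203: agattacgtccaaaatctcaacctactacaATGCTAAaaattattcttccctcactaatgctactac
mt-Nd5 and mt-Nd6, chrM:13522-13595, + strand: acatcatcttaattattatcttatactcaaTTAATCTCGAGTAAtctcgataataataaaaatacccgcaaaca

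In the first of these, the capitals run from the start codon of *mt-Atp6* to the stop codon of *mt-Atp8*, and a fragment inside them belongs to both genes. The tRNA genes were 59 to 75 bases long. The 3 shown next are the most abundant tRNA (*mt-Tl1*, a leucine tRNA), a tRNA that was low in both other groups (*mt-Tw*, the tryptophan tRNA) and the single member past the test (*mt-Ts1*, a serine tRNA), with the anticodon in capitals. *mt-Ts1* lies on the - strand and shares 3 bases with the end of *mt-Co1* on the + strand.
mt-Tl1, chrM:2676-2750, + strand: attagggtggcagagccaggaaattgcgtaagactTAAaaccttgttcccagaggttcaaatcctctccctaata
mt-Tw, chrM:4950-5016, + strand: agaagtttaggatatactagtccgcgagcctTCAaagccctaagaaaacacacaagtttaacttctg
mt-Ts1, chrM:6870-6938, - strand: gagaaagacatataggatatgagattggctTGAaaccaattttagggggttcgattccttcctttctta

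The anticodon of *mt-Tw* pairs with the codon that stops translation in the nuclear code and encodes tryptophan in mitochondria. The library kit kept strand, but whether strand was used in counting is not given in the sources used here. Without it, fragments of *mt-Ts1* and of the + strand precursor that runs through the same bases cannot be told apart.

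The rRNAs were the most abundant members. *mt-Rnr1*, the RNA of the small ribosomal subunit, was at 1992, 1405 and 2093 FPKM in WT stage 2, 1273, 1462 and 2190 in WT stage 3 and 1623, 1389 and 3180 in *Med23*-deficient stage 2 cells. *mt-Rnr2*, the RNA of the large subunit, was at 1561, 1097 and 1842 FPKM in WT stage 2, 895, 1134 and 1608 in WT stage 3, and 1148, 1065 and 2243 in *Med23*-deficient stage 2 cells. Both were highest in replicate 3 of each group, and the 3 groups overlapped. They ranked 16 and 21 in the whole table by mean FPKM. Whether the libraries had been depleted of mitochondrial rRNA is not given in the sources used here, so a level of rRNA in FPKM may not be its level in the cell.

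The mRNAs ranged from a mean of 13.8 FPKM over the 9 libraries for *mt-Nd3*, a complex I subunit, to 320.1 FPKM for *mt-Atp8*. As a share of the summed mRNA FPKM, *mt-Atp8* took 23.6%, *mt-Atp6* 13.3%, *mt-Nd4l* 12.5%, *mt-Co1* (the catalytic subunit of cytochrome c oxidase) 11.8% and *mt-Nd5* 11.1%. *mt-Cytb*, the mitochondrially encoded subunit of complex III, followed with 5.99%, and *mt-Nd4* with 4.4%. *mt-Nd1* (3.84%), *mt-Co2* (3.78%) and *mt-Nd2* (3.53%) lay close together and their ranges over libraries overlapped. *mt-Nd6*, the only mRNA of the - strand, took 2.78%, *mt-Co3* 2.44% and *mt-Nd3* 1.01%. No mRNA had a share whose values in one group lay wholly above or below those of another group, so the make-up of the mRNA did not separate the groups.

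*mt-Atp8* was at 415, 482 and 278 FPKM in WT stage 2, 359, 267 and 203 in WT stage 3, and 340, 326 and 211 in *Med23*-deficient stage 2 cells. *mt-Atp6* was at 211, 250 and 161, 192, 151 and 124, and 197, 183 and 142 FPKM in the same order of groups. Replicate 3 was the lowest library of each group for both genes, and the groups overlapped.

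Among the complex IV genes, *mt-Co1* was at 165, 155 and 178 FPKM in WT stage 2, 121, 138 and 153 in WT stage 3, and 144, 134 and 192.6 in *Med23*-deficient stage 2 cells. *mt-Co2* was at 54.3, 68.3 and 38.2 FPKM in WT stage 2, 57.0, 43.8 and 34.8 in WT stage 3, and 51.1, 62.8 and 44.7 in *Med23*-deficient stage 2 cells. *mt-Co3* was at 40.8, 45.6 and 27.3 FPKM, 34.9, 31.2 and 21.5, and 31.4, 35.0 and 27.3 in these groups. Replicate 3 was the highest library of each group for *mt-Co1* and the lowest for *mt-Co2* and *mt-Co3*. *mt-Cytb* was at 93.6, 96.3 and 85.7 FPKM in WT stage 2, 59.5, 66.6 and 66.3 in WT stage 3, and 77.1, 69.9 and 96.6 in *Med23*-deficient stage 2 cells. All WT stage 3 values of *mt-Cytb* were below those of the other 2 groups.

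Among the complex I genes, *mt-Nd1* was at 56.3, 45.9 and 56.4 FPKM in WT stage 2, 40.6, 37.9 and 57.6 in WT stage 3, and 43.2, 50.1 and 58.8 in *Med23*-deficient stage 2 cells. *mt-Nd2* was at 45.5, 48.8 and 51.3 FPKM, 38.4, 41.2 and 42.51, and 46.7, 42.54 and 57.9. *mt-Nd3* was at 15.6, 23.4 and 10.2 FPKM, 12.6, 15.5 and 5.48, and 14.6, 20.4 and 6.54. Of these, *mt-Nd2* was lower in every WT stage 3 library than in any other library. *mt-Nd4l* was at 213, 247 and 155 FPKM, 188, 114 and 91.5, and 230, 165 and 128 in the same order of groups. *mt-Nd4* was at 74.6, 75.7 and 56.9 FPKM, 59.2, 43.4 and 41.4, and 70.9, 59.8 and 50.6. The groups overlapped for both, and replicate 3 was again the lowest library of each group. *mt-Nd5* was at 183, 184 and 131 FPKM, 153, 126 and 110, and 177, 128 and 144. *mt-Nd6* was at 45.4, 51.7 and 39.4 FPKM, 25.6, 29.3 and 36.2, and 45.5, 30.1 and 30.1. For *mt-Nd6*, the WT stage 3 libraries lay wholly below the WT stage 2 libraries.

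**Figure D1:**
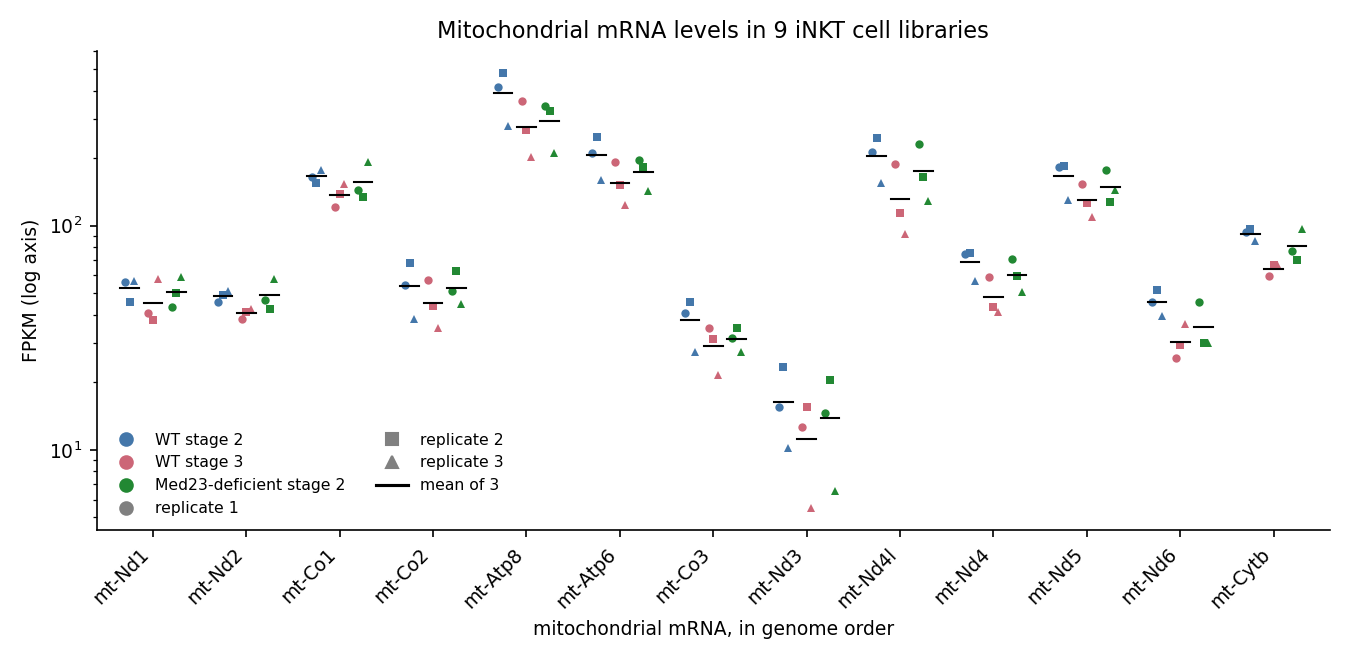
FPKM of the 13 mitochondrial mRNAs in genome order (log axis), with 1 point per library, colours for the 3 groups, symbols for the replicate and black lines for group means. The mean of WT stage 3 is below that of WT stage 2 for all 13, and replicate 3 of each group is the lowest for *mt-Atp8*, *mt-Nd3* and *mt-Nd4l*, yet not for *mt-Co1* or *mt-Nd1*.

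Fragments of 7 mRNAs could also be placed on a nearly identical stretch of nuclear DNA. A comparison of the transcripts found 7 gene models on chromosome 1 (mm10, chr1:24611535-24616197, - strand), annotated as pseudogenes, that matched 7 mitochondrial mRNAs over at least 294 bases with at most 1 mismatch each, and 5 of the 7 matched without any. Together they spanned the bases chrM:6390-11042, where all or part of 13 mitochondrial genes lie, 8 of them mRNAs. The bases between the gene models, *mt-Atp8* and the tRNAs among them, were not compared. The lowest identity was that of *mt-Nd3* and its copy Gm28438 (99.71%), which differed at 1 base of 345. The first 90 bases of both are shown, with the differing base in capitals, since they show how little a read could use to tell the genes apart.
mt-Nd3, chrM:9459-9548, + strand: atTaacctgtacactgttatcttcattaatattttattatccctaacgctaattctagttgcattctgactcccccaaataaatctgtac
Gm28438, chr1:24613030-24613119, - strand: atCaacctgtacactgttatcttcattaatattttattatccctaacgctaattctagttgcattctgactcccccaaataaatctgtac

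The authors kept reads that aligned to no more than 2 loci, so a read from this stretch could be placed at either. The copies were listed at the same order of FPKM as the mRNAs. The ratio of the copy to the mRNA over the 9 libraries was 0.913 to 1.35 for Gm28661 and *mt-Co2*, 0.768 to 1.25 for Gm28438 and *mt-Nd3*, 1.06 to 1.60 for Gm28437 and *mt-Co3*, and 1.14 to 1.46 for Gm10222 and *mt-Nd4l*. It was 1.30 to 1.62 for Gm10925 and *mt-Atp6*, 1.18 to 1.57 for Gm28439, which matches the first 876 bases of *mt-Nd4*, and 1.10 to 1.72 for Gm29216, which matches the last 483 bases of *mt-Co1*. Transcripts of the mitochondrial gene and of its copy cannot be told apart in these values, so the order of the mRNAs given above holds for the deposited FPKM, and the 5 mRNAs outside the stretch (*mt-Nd1*, *mt-Nd2*, *mt-Nd5*, *mt-Nd6* and *mt-Cytb*) had no such copy. The other 4 gene models with a match of at least 95% over 100 bases or more, on chromosomes 2 and 13, had a mean of at most 4.34 FPKM.

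**Figure D2:**
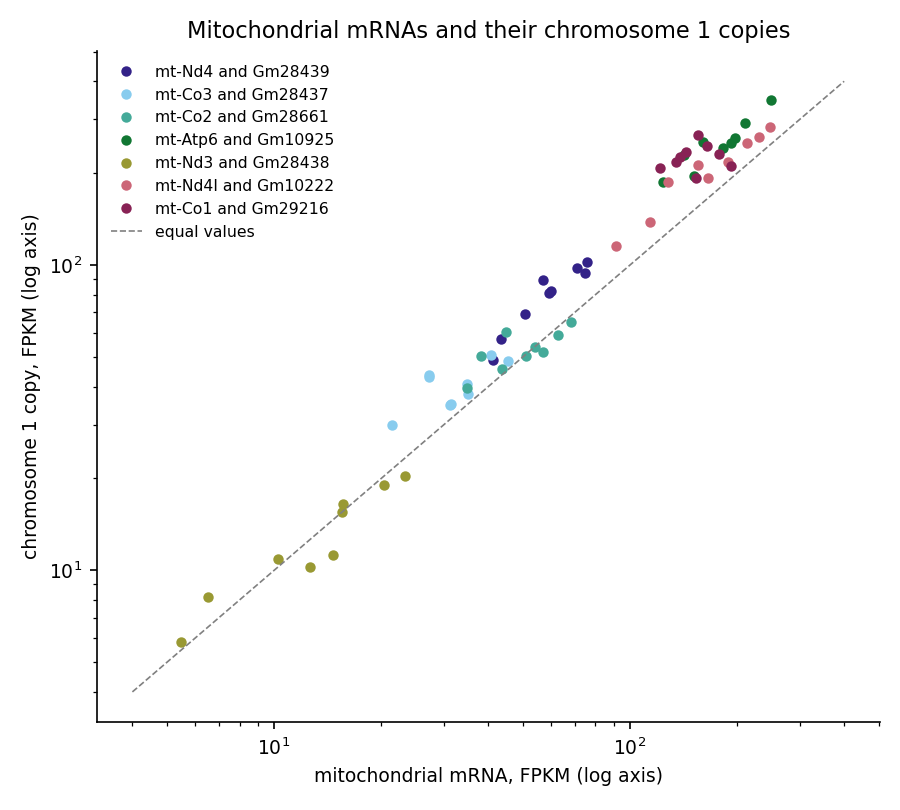
FPKM of 7 gene models on chromosome 1 (vertical log axis) against the FPKM of the mitochondrial mRNA that each matches (horizontal log axis), with 9 points per pair, 1 for each library. The points lie close to the dashed line of equal values, with ratios of copy to mRNA from 0.768 to 1.72.

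Summed over the 13 genes, mRNA was at 1612, 1774 and 1267 FPKM in WT stage 2, 1342, 1105 and 987 in WT stage 3, and 1469, 1307 and 1191 in *Med23*-deficient stage 2 cells. The sum was 1551 ± 259 (SD, n = 3), 1144 ± 181 and 1322 ± 140. WT stage 3 was 0.739 times WT stage 2 (log2 difference -0.44), with overlapping libraries and a 2-sided exact permutation p = 0.20, where 3 libraries against 3 cannot give a p below 0.10. When each FPKM was multiplied by the length of its gene in kilobases, which estimates the mRNA fragments of a library relative to its total, the values were 1289, 1344 and 1080 in WT stage 2, 1039, 924 and 883 in WT stage 3, and 1180, 1028 and 1105 in *Med23*-deficient stage 2 cells. On this scale, which weighs long mRNAs more, the WT stage 3 libraries lay below all WT stage 2 libraries (0.768 times, exact p = 0.10, the smallest possible). Both the sum and this estimate leave out fragments placed on the chromosome 1 copies. The FPKM of those copies was 0.768 to 1.72 times that of the mRNAs they match. In bulk samples fewer mitochondria or mitochondrial genomes per cell, less RNA per genome and a change in the mix of cells cannot be told apart.

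Summed rRNA was at 3552, 2502 and 3935 FPKM in WT stage 2, 2168, 2596 and 3799 in WT stage 3, and 2770, 2454 and 5423 in *Med23*-deficient stage 2 cells. The differences between groups were smaller than the spread within them (exact p = 0.60, 1 and 0.60 for WT stage 3 against WT stage 2, *Med23*-deficient against WT stage 2 and *Med23*-deficient against WT stage 3). The ratio of rRNA to mRNA was 2.20, 1.41 and 3.11 in WT stage 2, 1.62, 2.35 and 3.85 in WT stage 3, and 1.89, 1.88 and 4.55 in *Med23*-deficient stage 2 cells. It was highest in replicate 3 of every group. The same libraries had the most genes above 0 in their group (16670, 17151 and 17333) and the highest FPKM of *n-R5s193*, a 5S rRNA gene model, at 17743, 32329 and 32429. Their part in the rRNA levels was not tested, and the labels do not say what the replicates share. The ratio of *mt-Rnr1* to *mt-Rnr2*, which was looked at after the values were seen, was 1.28, 1.28 and 1.14 in WT stage 2, 1.42, 1.29 and 1.36 in WT stage 3 and 1.41, 1.31 and 1.42 in *Med23*-deficient stage 2 cells. Every library of the latter 2 groups was above every WT stage 2 library (exact p = 0.10 for each, the smallest possible), by 1.10 and 1.12 times. These 2 comparisons share the WT stage 2 libraries. The gap was narrow, from 1.281 in WT stage 2 replicate 2 to 1.289 in WT stage 3 replicate 2. The ratio of *mt-Nd6* to the + strand mRNAs was 3.04% ± 0.160 in WT stage 2, 2.83% ± 0.938 in WT stage 3 and 2.71% ± 0.435 in *Med23*-deficient stage 2 cells (SD, n = 3), which did not separate the groups (exact p = 0.70 and 0.30 against WT stage 2). The mRNA sums in this ratio and in that of rRNA to mRNA leave out fragments placed on the chromosome 1 copies. Neither the rRNAs nor *mt-Nd6* lie in the stretch spanned by those copies.

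**Figure D3:**
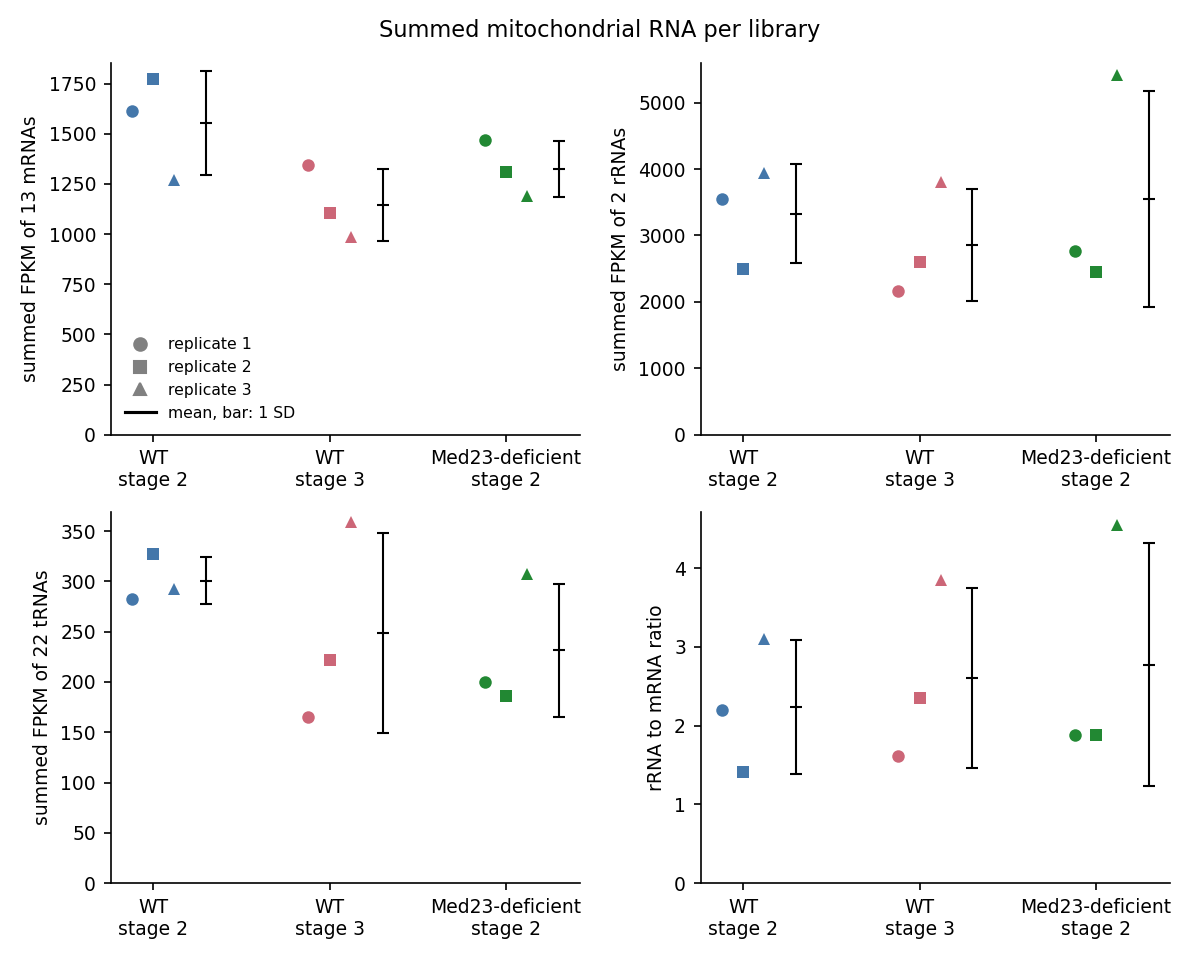
Summed FPKM of the mRNAs, rRNAs and tRNAs and the ratio of rRNA to mRNA in each library, with symbols for the replicates and black bars for the mean and 1 SD of 3 libraries. Replicate 3 is highest in each group for the rRNA sum (3935, 3799 and 5423) and for the ratio (3.11, 3.85 and 4.55).

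The means of all 13 mRNAs were below those of WT stage 2 in WT stage 3 cells, with log2 fold changes from -0.68 to -0.23 and a median of -0.41 on the log2(FPKM + 1) scale, on which all counts of lower and higher means are given. None of them passed an adjusted p of 0.05 by limma, and 4 had an unadjusted p under 0.05. Over all 37 members 1 was called, against 2.03% of the 20689 genes tested, and 6 had an unadjusted p under 0.05, against 14.5% of all genes. The largest difference was that of *mt-Nd4l* (-0.68, SE 0.321, adjusted p = 0.433), and the smallest adjusted p that of *mt-Cytb* (-0.51, SE 0.0898, adjusted p = 0.068). *mt-Nd6* differed by -0.57 (SE 0.168, adjusted p = 0.202), *mt-Nd4* by -0.52 (SE 0.190, adjusted p = 0.298), *mt-Atp8* by -0.50 (SE 0.296, adjusted p = 0.547) and *mt-Co1* by -0.28 (SE 0.116, adjusted p = 0.379). Of all 37 members, 7 had WT stage 3 values wholly below WT stage 2, namely *mt-Co1*, *mt-Cytb*, *mt-Nd2*, *mt-Nd6* and 3 tRNAs, and none wholly above, while 10.4% of all genes tested were wholly below. Genes in general leaned the same way but less: among the 2564 genes with a mean of at least 15 FPKM, 61.9% were lower in WT stage 3, with a median log2 fold change of -0.10. Of these 2564 genes, 514 were wholly below and 685 had an unadjusted p under 0.05 by limma, larger shares than those over all genes. The 7 of 37 members wholly below were near the share among abundant genes, but the sets are unlike. Several tRNAs, *mt-Ts1* and *mt-Te* among them, had means under 15 FPKM. Of the 13 mRNAs, which apart from *mt-Nd3* had means above 15 FPKM, 4 were wholly below. The 5 mRNAs without a copy on chromosome 1 were all lower (median -0.35), and so were the 8 within the copied stretch (median -0.46). The FPKM of each copy was also added to that of its mRNA, after scaling by the length of the copy relative to the mRNA. The 7 log2 fold changes then ran from -0.70 for *mt-Nd4l* to -0.27 for *mt-Co1*. The mean of all 13 stayed lower in each of the 16 alternatives described in the closing section, with medians from -0.59 to -0.30. On the TPM scale, which moved the median of genes with a mean of at least 1 FPKM to -0.14, the median of the mRNAs was -0.51.

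The tRNAs were measured at far lower levels. Summed over 22 genes they were at 282, 327 and 293 FPKM in WT stage 2, 165, 222 and 359 in WT stage 3 and 200, 186 and 307 in *Med23*-deficient stage 2 cells, which by gene length amounts to between 0.278% and 0.515% of the fragments on mitochondrial genes. A total RNA library covers such short genes mostly through longer precursors or fragments that reach into them. The 14 tRNAs of the + strand made up most of the sum (161 to 316 FPKM per library), and the 8 of the - strand summed to 3.63 to 43.3 FPKM. Between 17 and 22 of the 22 tRNAs were above 0 in a library. From WT stage 2 to WT stage 3, 14 had a lower mean and 8 a higher one, with log2 fold changes from -1.72 to 0.92.

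*mt-Tl1*, whose gene directly follows *mt-Rnr2*, was the most abundant tRNA, at 57.9, 97.2 and 85.5 FPKM in WT stage 2, 69.7, 37.8 and 80.3 in WT stage 3, and 53.2, 63.8 and 70.4 in *Med23*-deficient stage 2 cells. *mt-Tv*, a valine tRNA that lies between both rRNAs, was at 35.6, 22.9 and 49.0 FPKM, 18.2, 35.9 and 52.2, and 22.7, 22.3 and 59.4, and was highest in replicate 3 of each group as the rRNAs were. *mt-Tm*, the methionine tRNA that also starts translation, was at 34.5, 43.0 and 42.4 FPKM, 12.7, 14.9 and 43.6, and 22.4, 19.0 and 34.1. Its *Med23*-deficient values lay wholly below WT stage 2, and 2 of its 3 WT stage 3 values did. *mt-Tg*, a glycine tRNA, was at 18.6, 17.2 and 12.9 FPKM, 15.3, 17.1 and 39.6, and 12.2, 15.5 and 36.1, and *mt-Tt*, a threonine tRNA, at 24.0, 50.6 and 6.30, 5.15, 29.8 and 24.9, and 14.99, 10.96 and 16.5. Both overlapped between all groups.

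*mt-Ts1* was the single member past the test in any comparison. It was at 3.43, 2.13 and 2.10 FPKM in WT stage 2, 0.00, 0.31 and 0.10 in WT stage 3, and 2.95, 0.69 and 0.80 in *Med23*-deficient stage 2 cells. The WT stage 3 libraries were below all others, with a log2 fold change of -1.63 against WT stage 2 (SE 0.188, adjusted p = 0.0274 by limma). These are low values: multiplied by gene length in kilobases, as for the mRNA fragments above, the means come to 0.176 in WT stage 2 and 0.00943 in WT stage 3, and the gene lies within the stretch spanned by the chromosome 1 copy. The call was lost with a pseudocount of 0.1 (adjusted p = 0.0528), with an ordinary linear model per gene and a library-size covariate, after Ballgown (adjusted p = 0.162), with the replicate number as a block (adjusted p = 0.153) and without any 1 of 5 of the 6 libraries (adjusted p from 0.0676 to 0.113), and was kept without replicate 1 of WT stage 2 (adjusted p = 0.0487). Over all alternatives the adjusted p ran from 0.0115 to 0.26. Calls over all genes also fell, from 420 to 279 with the pseudocount, 5 with the model after Ballgown and 0 with the block. Without 1 library they came to between 69 and 204.

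*mt-Tw* was singled out after its values were seen. It was at 40.7, 23.0 and 24.2 FPKM in WT stage 2, 12.9, 8.47 and 10.8 in WT stage 3, and 11.1, 11.3 and 9.25 in *Med23*-deficient stage 2 cells. All 6 libraries of the latter 2 groups were below all WT stage 2 libraries. The log2 fold change was -1.34 for WT stage 3 (SE 0.269, adjusted p = 0.0924) and -1.35 for *Med23*-deficient stage 2 cells (SE 0.242, adjusted p = 0.151), 2 comparisons that share the WT stage 2 libraries, and neither passed the test. *mt-Te*, the glutamic acid tRNA, also lay below WT stage 2 (8.17, 2.72 and 2.65 FPKM) in WT stage 3 (0.56, 1.66 and 2.53) and in *Med23*-deficient stage 2 cells (1.25, 0.98 and 1.53), with log2 fold changes of -1.03 (adjusted p = 0.435) and -1.16 (adjusted p = 0.383). Unlike these, *mt-Ts2*, the second serine tRNA, had a listed value of 0 in every library of WT stage 2 and in 2 of 3 WT stage 3 libraries (0.13 FPKM in replicate 3), and was at 0.58, 0.54 and 0.28 FPKM in *Med23*-deficient stage 2 cells. It did not pass the test (adjusted p = 0.168), and no fold can be given.

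**Figure D4:**
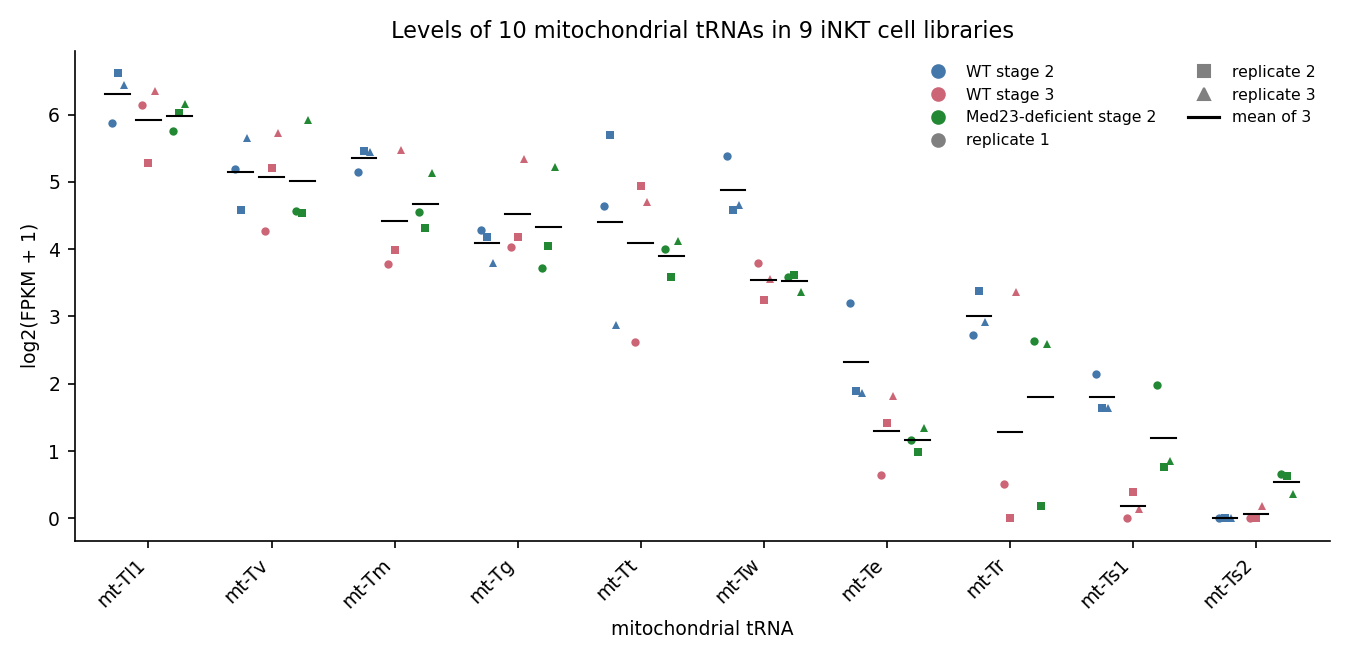
Levels of 10 mitochondrial tRNAs as log2(FPKM + 1), with 1 point per library, colours for the groups, symbols for the replicate and black lines for group means. *mt-Tw* (mean 29.3 FPKM in WT stage 2 against 10.7 and 10.5) and *mt-Te* are lower in both other groups, and *mt-Ts1* is lowest in WT stage 3 (mean 0.137 FPKM).

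In *Med23*-deficient stage 2 cells no member passed an adjusted p of 0.05 against WT stage 2 by limma, where 62 of 20674 genes tested (0.300%) did. The model after Ballgown called none either, and only 1 gene in the whole table, so its count says nothing of the members. Among the 37 members, 4 had an unadjusted p under 0.05 (*mt-Tw*, *mt-Ts2*, *mt-Te* and *mt-Tm*), about the same share as the 10.8% of all genes. Of the mRNAs, 11 of 13 had a lower mean of log2(FPKM + 1), with a median log2 fold change of -0.19 and a range from -0.41 for *mt-Atp8* (SE 0.287, adjusted p = 0.724) to 0.01 for *mt-Co2* (SE 0.248, adjusted p = 0.993), and no mRNA had groups that did not overlap. The number of lower mRNAs ran from 9 with a common upper quartile to 13 on the TPM scale. Their median stayed below 0 in each of the 16 alternatives (-0.38 to -0.09). Abundant genes leaned this way too, but less: 61.8% of those with at least 15 FPKM had a reduced mean (median -0.07). The scale also moved genes in general. For genes with a mean of at least 1 FPKM, the TPM scale put the median at -0.158, against -0.32 for the mRNAs. With the upper quartile these medians were 0.0376 and -0.0865. Among the tRNAs, 4 lay wholly below WT stage 2 (*mt-Tw*, *mt-Tm*, *mt-Te* and *mt-Tr*, an arginine tRNA) and *mt-Ts2* wholly above, that is 4 and 1 of 37 members against 8.37% and 5.63% of all genes tested. Among the 2550 genes with a mean of at least 15 FPKM, 447 lay wholly below and 196 wholly above. *mt-Tm* differed by -0.68 (SE 0.236, adjusted p = 0.391) and *mt-Tr*, at 5.62, 9.37 and 6.52 FPKM in WT stage 2 and 5.18, 0.14 and 5.03 in *Med23*-deficient stage 2 cells, by -1.20 (SE 0.721, adjusted p = 0.657). Over all 22 tRNAs, 15 had a lower mean than in WT stage 2.

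Against WT stage 3, *Med23*-deficient stage 2 cells had a higher mean of all 13 mRNAs (median log2 fold change 0.20, range 0.09 to 0.43). No member passed the test by limma, where 1.33% of 20846 genes did, or by the model after Ballgown, which called 18 genes in the whole table. An unadjusted p under 0.05 was found for 2 of 37 members and for 11.3% of all genes. The members wholly above WT stage 3 were *mt-Cytb* (0.32, SE 0.141, adjusted p = 0.502), *mt-Nd2* (0.25, SE 0.133, adjusted p = 0.608), *mt-Ts1* (1.02, SE 0.361, adjusted p = 0.372) and *mt-Ts2*, 4 of 37 against 7.48% of all genes tested, and none lay wholly below. Among the 2478 genes with a mean of at least 15 FPKM, 282 lay wholly above. The lead of all 13 mRNAs was not kept without replicate 3 of WT stage 3, when 3 mRNAs were lower, nor without replicate 1 or 2 of the *Med23*-deficient cells, when 2 were. The estimated mRNA fragments of *Med23*-deficient stage 2 cells were 1.17 times those of WT stage 3 (exact p = 0.20) and 0.895 times those of WT stage 2 (exact p = 0.30). For the summed mRNA, *mt-Cytb* and *mt-Nd4l*, the group means of *Med23*-deficient stage 2 cells thus lay between those of both WT stages, and no difference involving them passed a test.

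**Figure D5:**
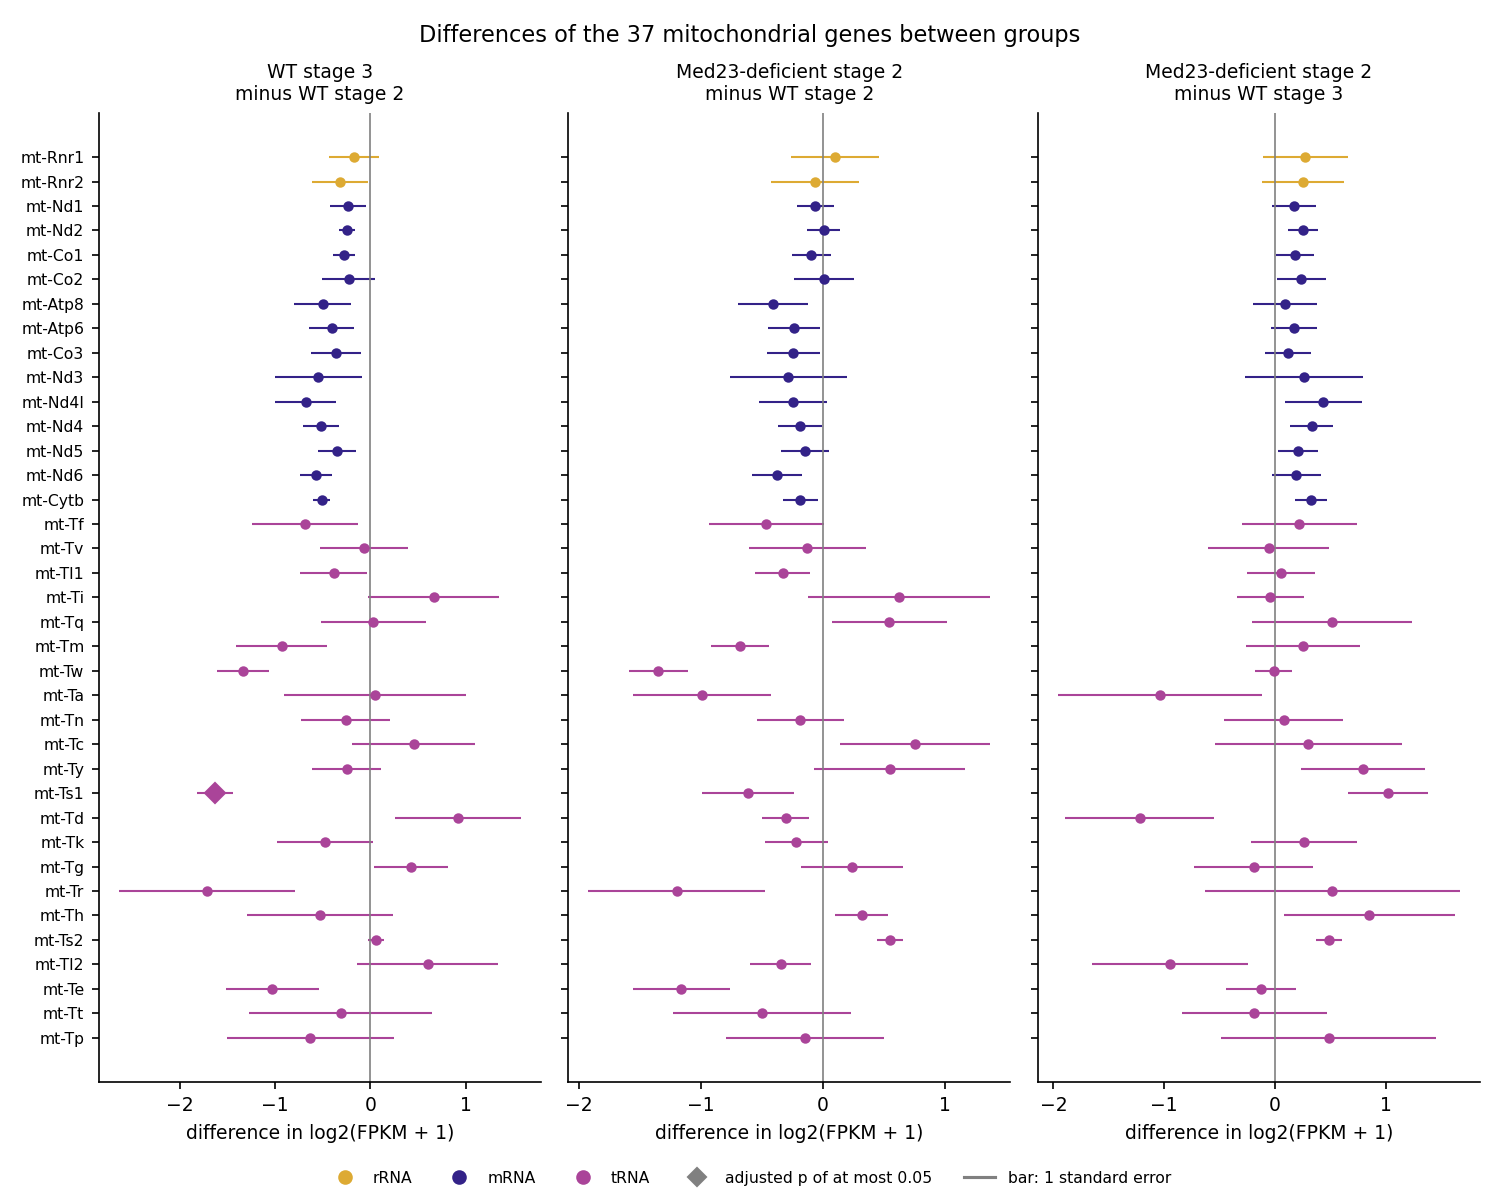
Differences in log2(FPKM + 1) of the 37 members in the 3 comparisons, with bars of 1 standard error and a diamond where the adjusted p was at most 0.05. All 13 mRNAs lie left of 0 for WT stage 3 against WT stage 2, 11 lie left of 0 for *Med23*-deficient against WT stage 2, and *mt-Ts1* in the first panel is the single diamond.

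The nuclear genes that serve mitochondrial RNA and the respiratory chain were described from lists. Of 21 genes for upkeep and transcription of the mitochondrial genome none was called in either comparison with WT stage 2. Of all genes tested, 2.03% were called in WT stage 3 and 0.300% in *Med23*-deficient stage 2 cells. The median log2 fold change of the 21 genes was 0.07 in WT stage 3 and 0.04 in *Med23*-deficient stage 2 cells. *Tfam* was at 9.06, 7.77 and 6.77 FPKM in WT stage 2, 8.80, 4.13 and 6.62 in WT stage 3, and 6.17, 6.32 and 8.90 in *Med23*-deficient stage 2 cells (log2 fold changes -0.28, adjusted p = 0.715, and -0.13, adjusted p = 0.831). *Polrmt* was at 4.85, 3.45 and 7.31 FPKM, 5.66, 4.29 and 6.04, and 2.63, 5.18 and 6.52 (0.07, adjusted p = 0.940, and -0.12, adjusted p = 0.940). The groups overlapped for both genes.

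Of 25 genes for processing and stability of mitochondrial RNA, 20 had a lower mean in WT stage 3 (median -0.17) and 18 in *Med23*-deficient stage 2 cells (median -0.25). One was called in WT stage 3 against WT stage 2, where 2.03% of all genes tested were. This was *Rexo2*, whose product degrades short RNA fragments in mitochondria. It was at 20.7, 24.3 and 18.8 FPKM in WT stage 2, 9.54, 7.57 and 6.85 in WT stage 3, and 14.4, 10.02 and 13.1 in *Med23*-deficient stage 2 cells. The WT stages did not overlap (log2 fold change -1.31, SE 0.154, adjusted p = 0.0294), and the call was lost without any 1 of the 6 libraries (adjusted p from 0.0559 to 0.106). In those fits calls over all genes also fell, from 420 to between 69 and 204. The *Med23*-deficient libraries lay between both WT stages without overlap, and differed from WT stage 2 by -0.73 (SE 0.166, adjusted p = 0.208) and from WT stage 3 by 0.58 (SE 0.177, adjusted p = 0.283). *Lrpprc* and *Slirp*, whose products form a complex that protects mitochondrial mRNAs, were also read. *Lrpprc* was at 11.5, 8.29 and 10.6 FPKM, 8.34, 8.18 and 7.18, and 8.10, 6.12 and 7.74, and differed from WT stage 2 by -0.31 (adjusted p = 0.403) and -0.42 (adjusted p = 0.444). *Slirp* was at 1.89, 3.08 and 1.60 FPKM, 1.24, 0.70 and 1.18, and 1.81, 0.85 and 1.47, and differed by -0.63 (adjusted p = 0.261) and -0.42 (adjusted p = 0.635).

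No other list had a called member in any of the 3 comparisons. Over all genes tested, 2.03% were called for WT stage 3 and 0.300% for *Med23*-deficient stage 2 cells against WT stage 2. Between WT stage 3 and *Med23*-deficient stage 2 cells 1.33% were called. At such shares few calls or none would fall in lists of this length. Of 82 mitochondrial ribosomal proteins, which bind the 2 mitochondrial rRNAs, 64 had a lower mean in WT stage 3 (median -0.23) and 57 in *Med23*-deficient stage 2 cells (median -0.18) than in WT stage 2. Of 20 mitochondrial tRNA synthetases, which charge the tRNAs, 17 were lower in WT stage 3 (median -0.17) and 11 in *Med23*-deficient stage 2 cells (median -0.02). Of 77 nuclear-encoded subunits of oxidative phosphorylation, the partners of the 13 mitochondrial proteins, 66 were lower in WT stage 3 (median -0.34) and 70 in *Med23*-deficient stage 2 cells (median -0.34), while *Med23*-deficient stage 2 cells and WT stage 3 cells had a median difference of -0.00351. Over genes with a mean of at least 1 FPKM the median was -0.05 in both comparisons with WT stage 2. Of these genes, 55.3% had a lower mean in WT stage 3 and 56% in *Med23*-deficient stage 2 cells. The mitochondrial mRNAs stood at -0.41 and -0.19 in these comparisons. Of 21 genes that modify mitochondrial rRNA and tRNA 14 and 11 had a lower mean, of 17 translation factors 13 and 13, and of 9 regulators of mitochondrial biogenesis 3 and 5.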

How the data were processed

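RNA from sorted thymic iNKT cells was prepared by the authors with the SMARTer stranded kit for low amounts of total RNA. Reads were trimmed with Trimmomatic 0.36, aligned to mm10 with HISAT2 and quantified over GENCODE vM12 genes with StringTie. The values are FPKM that the authors deposited as 1 table, with 2 decimals. Groups were taken from the sample titles. From the FPKM, log2(FPKM + 1) was fitted with limma 3.58.1 (R 4.3.3, without a mean-variance trend), over the 6 libraries of a comparison and all genes above 0 in at least 1 of them. A call is a p of at most 0.05 after Benjamini-Hochberg adjustment over every gene tested. Sums and ratios, 1 value per library, were compared by a 2-sided exact permutation test. Transcripts (GENCODE vM21, same coordinates for the 37 members) were compared with blastn 2.17.0, at an identity of at least 95% over at least 100 bases. Named by rule were all mRNAs and rRNAs, tRNAs called or among the 5 most abundant, up to 2 called genes per list and direction, and *Tfam*, *Polrmt*, *Lrpprc* and *Slirp*; *mt-Tw*, *mt-Te*, *mt-Tr* and *mt-Ts2* were added after their values were seen. The members and lists were chosen with earlier results of these data known. Alternatives were a pseudocount of 0.1, a mean of at least 1 FPKM, 3 other scalings, limma with trend, a linear model after Ballgown, all 9 libraries in 1 fit, a replicate block and leaving out libraries. Scripts were tested on simulated data. Depth is unknown, so no counting error is given. One marker gene of the double-positive thymocyte list is not reported here.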

Additional observations from a re-analysis of the deposited data

How the results depend on the processing

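Of 1259 values recomputed under alternatives, 1170 kept their direction and their side of the threshold. The 1 member called for WT stage 3 against WT stage 2 became 0 with a pseudocount of 0.1, with the model after Ballgown and without replicate 3 of both groups, and 2 (*mt-Tw* with adjusted p = 0.0311 and *mt-Ts1*) when all 9 libraries shared 1 limma fit. A pseudocount of 0.1 gave 1 called member (*mt-Ts2*) for *Med23*-deficient cells against WT stage 2. Leaving out single libraries gave 0 to 1 for WT stage 3 against WT stage 2. The causes were not tested.

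What replicates of the same number share is not stated. Their deviations from the group means correlated by 0.0043 to 0.27, highest for replicate 3, which correlated best with its own number in each comparison. For WT stage 3 against WT stage 2, replicates 1 and 2 did so too (correlations of 0.085 and 0.031). In the other comparisons they did not always do so. The main fit did not take the numbers as pairs, since the labels do not say what they share. A shared batch was not tested. With the replicate number as a block, 0 members were called for WT stage 3 against WT stage 2 in place of 1, and the calls over all genes went from 420 to 0, from 62 to 0 for *Med23*-deficient cells against WT stage 2 and from 278 to 31 against WT stage 3. *Rexo2* had an adjusted p of 0.121 with the block, 0.0595 with a pseudocount of 0.1 and 0.287 with the model after Ballgown.

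None of the values that changed direction had passed a test. For *Med23*-deficient cells against WT stage 2, the TPM scale gave log2 differences of -0.0335 for *mt-Rnr1*, -0.12 for *mt-Co2*, -0.12 for *mt-Nd2* and -0.105 for summed rRNA, and for WT stage 3 against WT stage 2 it gave -0.0183 for *Polrmt*. Scaling to genes other than the mitochondrial ones and *Gm23935*, a gene model that held most of the summed FPKM, gave -0.0307 for *mt-Co2*, -0.0341 for *mt-Nd2* and -0.0135 for summed rRNA. A common upper quartile gave 0.0383 for *mt-Rnr2*, 0.00948 for *mt-Co1* and 0.0403 for *mt-Nd1*, and 0.0127 for *mt-Tv* in WT stage 3. The model after Ballgown gave 0.34 for *mt-Rnr2*, 0.11 for *mt-Co1*, 0.0201 for *mt-Nd1*, -0.22 for *mt-Co2*, 0.44 for *mt-Tv* and 0.13 for *Polrmt*, and 0.056 for *mt-Tv* in WT stage 3. Without replicate 3 of both groups, chosen after seeing the data, the values were -0.16 for *mt-Rnr1*, -0.10 for *mt-Co2*, -0.0796 for *mt-Nd2*, -0.35 for *mt-Tg* and -0.19 for summed rRNA, and -0.13 for *mt-Tg* in WT stage 3.

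Without 1 library at a time, WT stage 3 against WT stage 2 ran from -0.41 to 0.33 for *mt-Tv*, -1.08 to 0.42 for *mt-Tt*, -0.15 to 0.30 for *Polrmt*, -0.13 to 0.50 for the ratio of rRNA to mRNA and -0.40 to 0.0881 for that of *mt-Nd6* to the + strand mRNAs. *Med23*-deficient cells against WT stage 2 ran from -0.26 to 0.33 for *mt-Rnr1*, -0.41 to 0.13 for *mt-Rnr2*, -0.25 to 0.00636 for *mt-Co1*, -0.17 to 0.044 for *mt-Nd1*, -0.21 to 0.20 for *mt-Co2*, -0.12 to 0.10 for *mt-Nd2* and -0.61 to 0.14 for *mt-Nd3*. They ran from -0.58 to 0.12 for *mt-Tv*, -0.21 to 0.54 for *mt-Tg*, -1.26 to 0.15 for *mt-Tt*, -0.34 to 0.18 for *Polrmt*, -0.33 to 0.24 for summed rRNA and -0.18 to 0.52 for the ratio of rRNA to mRNA. Summed rRNA against WT stage 3 ran from -0.09 to 0.49. Without counts, the depth behind low tRNA values is unknown, and 3 libraries per group limit the exact tests to p = 0.10.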
